A study of Mus musculus with 12 samples.

Results

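The genes described here encode proteins that copy, package and transcribe mitochondrial DNA. They are Tfam, Polrmt, Tfb2m, Polg, Polg2, Twnk, Ssbp1, Mgme1, Top1mt and Lonp1, chosen by name. All 10 were found, each on a single line, among 25162 genes in a table of mouse oocyte RNA. Of the 10, 9 averaged 1 FPKM or more and were among the 10110 genes compared. Top1mt did not reach that level and is given by its values. FPKM counts fragments per kilobase of transcript and per library size, so levels of different genes are per length and can be set side by side.

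The control is labelled WT and carries the floxed allele, Rnaseh1 fl/fl. The other group is labelled KO and headed Rnaseh1 oo-/-, a deletion in the oocyte. The sources used here give neither the Cre line that makes the deletion nor the age of the mice. Each genotype was taken at 3 stages named NGO, GO and FGO, taken here as the usual short forms for oocytes before, during and at the end of growth. There were 12 labelled samples, or 2 for every group, and each pooled 10 oocytes, to which 100 pg of ERCC RNA was added as a spike-in. The values come in 6 columns, 1 for each genotype and stage, which the authors had adjusted to the spike-in. Whether a column is a mean, a pool or a single sample is not stated. No difference below has a replicate check, and no SD, n or p-value can be given. The depth behind each value is unknown.

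A mammalian oocyte carries very many copies of mitochondrial DNA, which multiply while the cell grows and are then divided among the cells of the embryo. Transcription by POLRMT, with TFAM and TFB2M at the promoter, makes both the messenger RNAs and the primers from which replication starts. The replisome joins the polymerase POLG and its accessory subunit POLG2 to the helicase TWNK and the single-strand binding protein SSBP1. RNase H1, the enzyme removed in KO, is known to clear RNA-DNA hybrids in the nucleus and also to remove replication primers in mitochondria. The table held 0 mitochondrially encoded genes, so neither mitochondrial transcripts nor the amount of mitochondrial DNA were measured.

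On mm10 the genes lie as follows in the GENCODE M21 annotation. Tfam is at chr10:71225464-71238280 and Polrmt at chr10:79736123-79746581. Tfb2m is at chr1:179528055-179546267, Polg at chr7:79446231-79466362 and Polg2 at chr11:106768253-106779537. Twnk is at chr19:45005663-45012762 and Ssbp1 at chr6:40471352-40484700. Mgme1 is at chr2:144270663-144281227, Top1mt at chr15:75657035-75678800 and Lonp1 at chr17:56614297-56626887. Some share exonic bases with a gene on the opposite strand, which Smart-seq2 libraries, as commonly made, do not mark. Twnk shares 507 such bases with Mrpl43, Polg shares 921 with Fanci, Mgme1 shares 206 with Snx5, Polg2 shares 132 with Milr1, and Top1mt shares 95 with Gm15945. Tfb2m has a near copy, Gm1818, that matches it at 99.3% over 1187 bases, and Ssbp1 has Gm12115, at 97.8% over 447 bases. The sources used here do not say how reads were divided within such pairs, so the values of these 7 genes carry that uncertainty.

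The promoter windows of 9 of the 10 genes were found in RefSeq on GRCm38.p6, each from 250 bases before to 50 bases after a start. They were searched on both strands for CCGGAAG, the core bound by ETS factors such as GABPA, a known regulator of mitochondrial genes. Tfam, Polrmt, Polg, Polg2, Twnk and Ssbp1, 6 of the 9, hold it, Twnk only at the second of its listed starts. It is in 8.86% of all 32851 promoter windows and in those of 22.0% of the 8169 compared genes with a window. The 6 genes are the DNA packaging protein, the RNA polymerase and the whole listed replisome. The sites are shown with 30 bases each, on the strand that reads the core, with the core in capitals, since 6 of the 9 genes hold it.
Tfam, chr10:71238073-71238102, minus strand: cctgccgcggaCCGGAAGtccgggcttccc
Polrmt, chr10:79746607-79746636, plus strand: ttctgcgactgCCGGAAGcgctcttagggt
Polg, chr7:79466293-79466322, minus strand: gaggacctcacCCGGAAGtccctctgcacc
Polg2, chr11:106779549-106779578, plus strand: agaccacgcccCCGGAAGagcgtcacccgc
Twnk, chr19:45006436-45006465, minus strand: caaccccggaaCCGGAAGtcaccggttagt
Twnk, chr19:45006480-45006509, minus strand: tcgcggtgactCCGGAAGcaaaactctcca
Ssbp1, chr6:40471410-40471439, plus strand: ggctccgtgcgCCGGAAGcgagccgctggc

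In Tfam and Ssbp1 the core begins 47 bases before the RefSeq start of the window, in Polrmt 43, in Polg 38 and in Polg2 29. These starts are not always where the gene begins in GENCODE M21. The sites of Tfam, Polg and Ssbp1 lie inside the GENCODE loci given above, and those of Polrmt and Polg2 outside. Of the 150 bases before the start, 150 are in exons of the gene itself in Tfam, 116 in Ssbp1 and 89 in Polg. In Polrmt and Polg2 it is 0. Twnk has a pair, beginning 110 and 66 bases before the second of its listed starts. That start lies inside the Twnk locus, and 35 of the 150 bases before it are in exons of Mrpl43, on the other strand. Both cores lie just before the GENCODE start of Mrpl43 and read on its strand. Which of these genes they serve, if any, was not tested. The window of the first start, where the locus begins, does not hold the core. The windows of Tfb2m, Mgme1 and Lonp1 do not hold these letters. The core bound by NRF1, searched as GCGC, any 2 bases and GCGC again on both strands, is in the windows of Polrmt and Mgme1 and in 6.23% of all windows. Among compared genes with a window 16.6% have it, so 2 of 9 is near that share. The GC box, searched as GGGCGG on both strands, is in 6 of the 9, against 35.7% of all windows and 68.3% of those of compared genes. Polrmt has overlapping copies of the NRF1 core, the first from 6 bases before the start. A match describes the sequence and is not evidence that a factor binds there.

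Before the values, the markers and the scale need stating. Rnaseh1 was at 8.61, 27.8 and 29.1 FPKM in WT at NGO, GO and FGO, and at 0.931, 3.10 and 8.02 FPKM in KO. Which exons the deletion removes is not stated in the sources used here, so reads from the rest of the gene may be among these. All 10 oocyte markers examined were above 1 FPKM in each column, with Zp3, a protein of the egg coat, at 2865 FPKM in WT NGO already. At FGO all genes summed to 460906 FPKM in WT and 729690 in KO, and the median log2 difference of all genes was 0.72. Differences are therefore given as deposited and again after rescaling, which divides each column by the median, over genes, of its ratio to the geometric mean of the 6. All differences are of log2(FPKM + 1), which understates the change of low genes, and a gene is called changed when the difference is at least 1, or 2-fold. More RNA per oocyte and another yield of spike-in cannot be told apart here. Oocytes were set at 10 per sample. For genes of other cells carried along, the number of such cells and the RNA per cell cannot be told apart either.

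Twnk, the helicase, had the highest level of the 10 in each of the 6 columns, and Top1mt, a topoisomerase, the lowest. Polg, the catalytic subunit of the polymerase, was far below its partners. In WT GO it was at 2.08 FPKM, against 5.72 for Polg2, 18.8 for Ssbp1 and 64.3 for Twnk. Among all compared genes in that column, Polg stood at percentile 13.7 and Twnk at percentile 88.6. In WT at GO the order from high to low was Twnk, Tfam, Ssbp1, Polrmt, Lonp1, Mgme1, Polg2, Tfb2m, Polg and Top1mt. Tfam was the second of these in WT GO and the sixth in WT FGO, where Ssbp1, Polrmt, Mgme1 and Lonp1 stood above it. Without replicates, neighbours in these orders cannot be separated.

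The 10 genes together made up 65.9 FPKM in WT NGO, 157 in WT GO and 88.6 in WT FGO. In KO their sums were 54.2, 144 and 210.0 FPKM. As a share of all FPKM in the column, WT went from 0.0420% and 0.0408% at NGO and GO to 0.0192% at FGO. KO went from 0.0410% and 0.0405% to 0.0288%. Both genotypes thus had the lowest share at FGO, and the WT share was the lower of the pair. Twnk, at 64.3 FPKM in WT GO and 24.7 in WT FGO, and Tfam, at 28.6 and 8.27, carried most of the WT fall. Together with Polg and Polg2 they summed to 101 FPKM in WT GO and 36.3 in WT FGO, against 83.0 and 100.1 in KO.

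**Figure D1:**
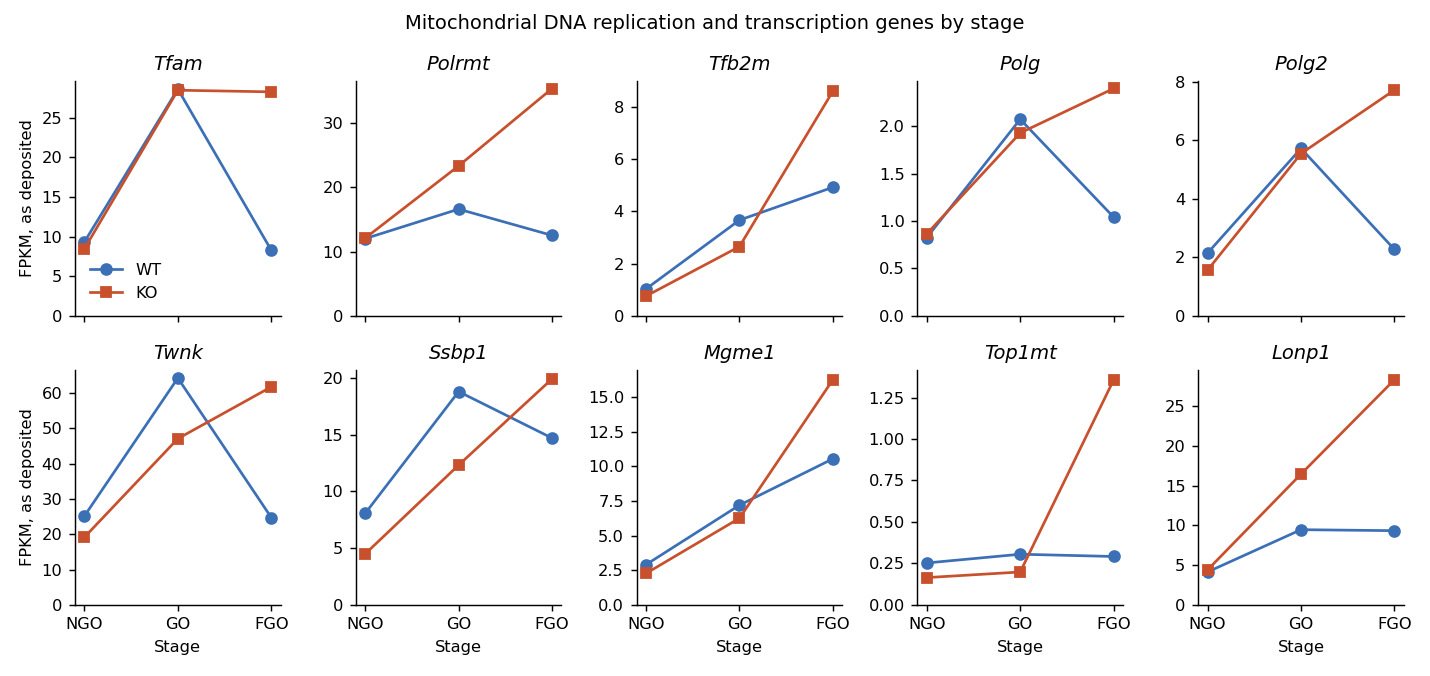
FPKM as deposited (vertical axis, from 0, its range set for each gene) of the 10 genes at NGO, GO and FGO (horizontal axis), with circles for the WT column and squares for the KO column. In WT 8 of the 10 are highest at GO, Lonp1 and Top1mt by little, and Tfb2m and Mgme1 are highest at FGO. In KO each is highest at FGO except Tfam, at 28.5 FPKM in GO and 28.3 in FGO. As deposited the median log2 step of all compared genes was 1.06 from NGO to GO in WT and 0.84 from GO to FGO in KO. After rescaling 2 of the 9 compared genes, Tfb2m and Mgme1, rose from GO to FGO in KO and 7 fell.

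Tfam coats mitochondrial DNA and bends it at promoters, and its level is known to go with the number of genomes. It was at 9.33 FPKM in WT NGO, 28.6 in WT GO and 8.27 in WT FGO. In KO it was at 8.46, 28.5 and 28.3 FPKM. The genotypes were close at NGO and GO, and the WT FGO column stood apart from the KO FGO column. The KO to WT log2 difference at FGO was 1.66 as deposited and 0.88 after rescaling, the latter at percentile 97.4 of all compared genes. Under equal column totals it was 1.01, so whether Tfam passes 2-fold depends on the scale. From GO to FGO Tfam fell in WT to 28.9% of its GO level, a log2 step of -1.68 as deposited and -1.66 after rescaling. In KO the same step was -0.01 and -0.85.

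Polrmt is the RNA polymerase of mitochondria. It was at 12.01, 16.6 and 12.5 FPKM in WT and at 12.1, 23.3 and 35.4 FPKM in KO. The genotypes were alike at NGO and KO was the higher at GO and FGO. The log2 differences were 0.01, 0.47 and 1.43 as deposited and 0.18, 0.53 and 0.66 after rescaling. Its step from NGO to GO in WT was the lowest of the 9 compared, 0.44 as deposited and -0.81 after rescaling.

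Tfb2m opens the promoter for POLRMT and followed another course. It was at 1.03, 3.66 and 4.92 FPKM in WT. In KO it was at 0.753, 2.65 and 8.60 FPKM. Unlike Tfam, it was highest at FGO in both genotypes. After rescaling its KO to WT difference at FGO was 0.01, against 0.70 as deposited, close to the median gene on either scale.

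Polg copies mitochondrial DNA and proofreads it. It was at 0.826, 2.08 and 1.04 FPKM in WT and at 0.866, 1.93 and 2.40 FPKM in KO. As deposited WT FGO lay near its NGO level, and KO FGO was the highest of the 6. After rescaling KO NGO was the highest, at 1.91, and WT FGO the lowest, at 0.797. The KO to WT difference at FGO was 0.74 as deposited, close to the 0.72 of the median gene, and 0.20 after rescaling. At such levels the added constant of 1 shrinks a log2 difference, and the plain KO to WT ratio at FGO was 2.31 as deposited, 1.33 after rescaling and 1.46 under equal totals.

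Polg2 clamps the polymerase to its template. It was at 2.14, 5.72 and 2.27 FPKM in WT and at 1.56, 5.55 and 7.72 FPKM in KO. The genotypes were close at GO and apart at FGO. The difference at FGO was 1.42 as deposited and 0.69 after rescaling, the latter at percentile 94.1. Its WT step from GO to FGO was -1.04 as deposited and -0.99 after rescaling.

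Twnk unwinds the double strand ahead of the polymerase. It was at 25.2, 64.3 and 24.7 FPKM in WT and at 19.2, 47.1 and 61.8 FPKM in KO. KO was the lower at NGO and GO and the higher at FGO. The differences were -0.38, -0.44 and 1.29 as deposited and -0.21, -0.36 and 0.51 after rescaling. In WT Twnk fell from GO to FGO by 1.34 on the log2 scale as deposited and by 1.35 after rescaling. Mrpl43, which overlaps it on the other strand, was at 11.03, 29.9 and 12.1 FPKM in WT and at 8.54, 21.4 and 25.3 FPKM in KO. The courses of the overlapping pair were thus much alike. They share 507 of the 4013 exonic bases of Twnk, and reads from those bases cannot be told apart here. Not every overlapping pair was alike, as Mgme1 and Snx5 below.

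Ssbp1 coats the exposed single strand. It was at 8.06, 18.8 and 14.7 FPKM in WT and at 4.49, 12.3 and 19.9 FPKM in KO. It was the listed gene with the lowest KO to WT difference at each stage, -0.72, -0.57 and 0.41 as deposited. After rescaling these were -0.61, -0.49 and -0.32, at percentiles 2.35, 13.0 and 19.8 of all compared genes. None reached 2-fold. Its 5 annotated coding transcripts run from 579 to 4398 nt, and which of them the oocytes made was not analysed here. By its principal transcript, of 4398 nt, it belongs with the 2887 compared genes over 4000 nt, whose rescaled medians were 0.05, -0.04 and -0.02 at the 3 stages. The 692 genes of at most 1000 nt had medians of -0.23, -0.40 and -0.36. The part of transcript length in the Ssbp1 values was not tested.

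Mgme1 is the exonuclease that trims the ends left by replication. It was at 2.90, 7.19 and 10.5 FPKM in WT and at 2.27, 6.25 and 16.2 FPKM in KO. It was highest at FGO in both genotypes, as Tfb2m was. Rescaled differences between genotypes were -0.15, -0.11 and -0.15. Snx5, which overlaps it on the other strand, was at 3.14, 9.52 and 4.17 FPKM in WT and at 5.40, 9.69 and 14.8 in KO. From GO to FGO in WT, Snx5 thus fell while Mgme1 rose.

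Top1mt relieves supercoils in mitochondrial DNA. It was at 0.252, 0.305 and 0.291 FPKM in WT and at 0.164, 0.198 and 1.36 FPKM in KO. The KO FGO column alone was above 1 FPKM. At this level a few reads may decide a value, and it entered no count.

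Lonp1 is the matrix protease that degrades TFAM not bound to DNA, besides damaged proteins. It was at 4.13, 9.45 and 9.33 FPKM in WT and at 4.39, 16.5 and 28.3 FPKM in KO. The genotypes were close at NGO, and KO was the higher at GO and FGO. The differences were 0.07, 0.74 and 1.51 as deposited and 0.24, 0.79 and 0.73 after rescaling. The GO value was at percentile 96.5 as deposited and 96.8 after rescaling, the highest of the 9 at that stage. As deposited, Lonp1 and Polrmt were the 2 of the 9 with a difference above 0 at GO.

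Set against all genes, no listed gene differed 2-fold between genotypes at NGO or GO. At NGO 0 of 9 were called, where 0.0297% of the compared genes were higher and 0.326% lower. It was also 0 of 9 after rescaling, where 0.129% and 0.356% were, and under equal totals, where 0.247% and 0.386% were. At GO again 0 of 9 were called, against 0.95% higher and 2.03% lower. After rescaling these shares were 1.05% and 1.28%, and under equal totals 1.54% and 1.33%, with 0 of 9 called on each. The medians of the 9 were -0.21 at NGO and -0.07 at GO, against -0.11 and -0.09 for all genes.

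At FGO all 9 were above 0 as deposited and 5 were at least 2-fold higher in KO, where 25.8% of the compared genes were. The 5 were Tfam, Lonp1, Polrmt, Polg2 and Twnk. The lower direction held 0 of the 9, and 0.158% of all genes. The median of the 9 was 1.29 as deposited and 0.51 after rescaling, against 0.72 and 0.02 for all genes. Most genes were thus above 0 as deposited, and 6 of the 9 were above the median gene on either scale. After rescaling 7 of the 9 were above 0 and 0 were called, against 1.68% of all genes higher and 0.94% lower. Under equal totals 1 of 9 was higher, Tfam, against 2.57% of all genes, and 0 lower, against 0.603%. What was left after the difference of the median gene was taken out was largest in Tfam, Lonp1, Polg2 and Polrmt.

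Markers of other cells were checked beside the FGO result. The 12 granulosa cell markers summed to 14.8 FPKM for WT at FGO against 41.9 for KO, with 4 and 7 of them at 1 FPKM or more. Over the other 4 columns their sums ran from 2.19 to 8.80 FPKM. Of the 12, 10 had higher values in KO FGO than in WT FGO. Inha went from 1.17 to 9.32 FPKM, Gja1 from 0.965 to 6.96 and Cyp19a1 from 6.16 to 10.4. Amh and Foxl2, defining genes of granulosa cells, were near 0 in both, at 0.0206 and 0.013 FPKM for WT and at 0.282 and 0 for KO. At FGO the 7 theca and stroma markers went the other way, with a sum of 5.55 FPKM for WT against 3.88 for KO. The 4 immune markers summed to 1.23 and 2.13 FPKM, and the 5 endothelial and blood markers to 8.84 and 15.1, mostly Pecam1. The 10 oocyte markers summed to 8392 FPKM for WT against 16552 for KO. The part of other cells in the values of the listed genes was not tested.

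**Figure D2:**
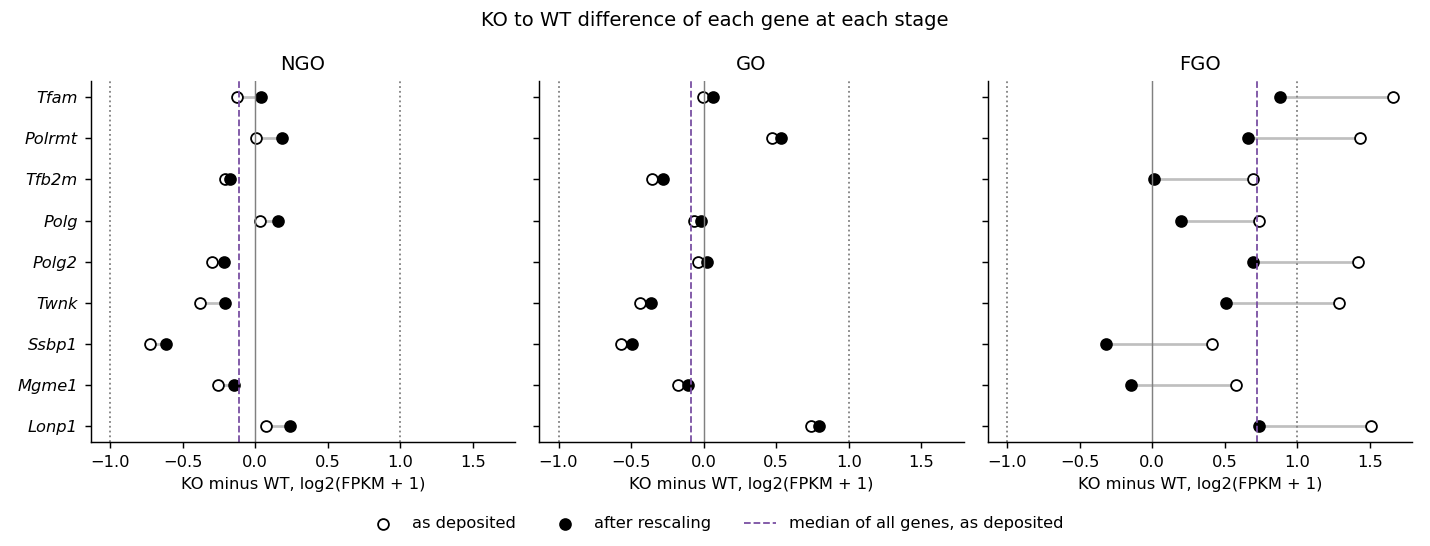
KO minus WT difference of log2(FPKM + 1) (horizontal axis) of the 9 compared genes (vertical axis) at each stage, with open circles for values as deposited and filled circles after rescaling. The dashed line is the median of all genes as deposited (-0.11, -0.09 and 0.72) and dotted lines mark 2-fold. At FGO each open circle lies above 0, and the filled circles of Ssbp1 and Mgme1 lie below 0.

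The stage steps show how the genes behaved within each genotype. From NGO to GO 7 of the 9 rose at least 2-fold in WT as deposited and 7 of 9 in KO, where 54.8% and 57.6% of all compared genes did. In the lower direction it was 0 of 9 in both, against 0.129% and 0.089%. Tfam rose from 9.33 to 28.6 FPKM in WT, and Lonp1 from 4.39 to 16.5 FPKM in KO. Polg and Polrmt were not called in either genotype. The plain GO to NGO ratio of Polg was 2.51 in WT and 2.23 in KO, so the added 1 kept it below the call. That of Polrmt was 1.38 and 1.93. With 0.1 in place of 1, 8 of 9 rose at least 2-fold in each genotype. After rescaling none of the 9 was called in either genotype, with 6.06% of genes higher and 3.27% lower in WT, and 5.37% and 2.59% in KO. Under equal totals it was again 0 of 9, with 6.94% and 3.27% of genes in WT and 5.93% and 3.03% in KO. The rescaled medians of the 9 were 0.0013 in WT and 0.03 in KO. Single genes lay on both sides of the median gene. In WT the rescaled step was -0.81 for Polrmt, at percentile 5.48, and 0.36 for Tfb2m, at percentile 75.6. In KO it was -0.46 for Polrmt and 0.43 for Lonp1.

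From GO to FGO the listed genes parted. In WT Tfam, Twnk and Polg2 fell at least 2-fold as deposited, 3 of 9 where 9.22% of all genes did. The other direction held 0 of 9, against 6.5% of all genes. After rescaling Tfam and Twnk were 2-fold lower, 2 of 9 against 8.33% of all genes, and Polg2 was just short, at -0.99. In the higher direction it was 0 of 9 against 5.78%. Under equal totals 3 of 9 were lower and 0 higher, against 12.5% and 4.1%. Polg, the partner of Polg2, had steps of -0.59 and -0.54 on the same scales, with 50.2% of its GO level left at FGO. Polrmt and Ssbp1 had smaller negative steps, Lonp1 was near 0, and Tfb2m and Mgme1 had positive ones, at 0.31 and 0.46 after rescaling. The median of the 9 in WT was -0.38 as deposited and -0.39 after rescaling, against 0.08 and 0.06 for all genes.

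In KO Tfb2m and Mgme1 rose at least 2-fold from GO to FGO as deposited, 2 of 9 where 39.0% of all genes did. The lower direction held 0 of 9 and 0.514% of all genes. After rescaling 0 of 9 were called, against 6.42% of genes higher and 3.66% lower. Under equal totals it was 0 of 9 too, against 5.5% and 6.32%. Tfam had the lowest rescaled step in KO as well, -0.85, followed by Twnk at -0.48, Polg2 at -0.33 and Polg at -0.32. After rescaling the step of each of these 4 was smaller in size in KO than in WT. As deposited their KO steps were -0.01, 0.38, 0.41 and 0.21.

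This smaller step was shared by most genes that were lower at FGO in WT. Of the 842 genes at least 2-fold lower in WT after rescaling, 95.1% had a less negative step in KO. Their median step was -1.35 in WT and -0.83 in KO. Those genes were picked for their WT step, which by itself favours a less negative step in KO. Tfam had -1.66 in WT and -0.85 in KO, and Twnk -1.35 and -0.48. The listed genes were not tested against that larger group.

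**Figure D3:**
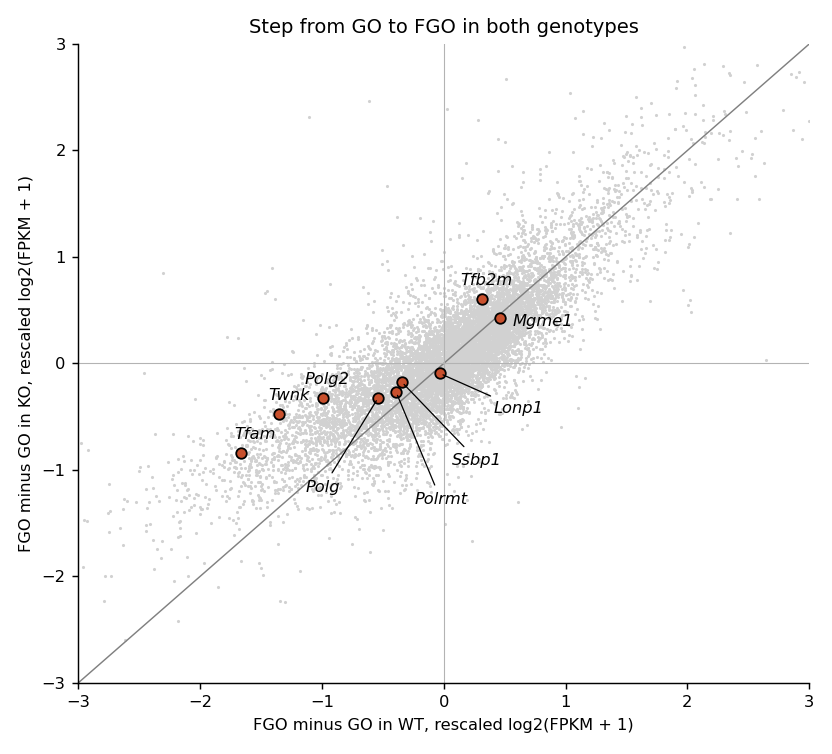
Step from GO to FGO in WT (horizontal axis) and in KO (vertical axis), as differences of rescaled log2(FPKM + 1), with the 9 compared genes in red and all compared genes in grey, apart from 34 outside the axes. The diagonal marks equal steps. Tfam, Twnk, Polg2, Polg, Polrmt and Ssbp1 lie at the lower left above the diagonal, Lonp1 near 0, and Tfb2m and Mgme1 at the upper right.

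The KO to WT difference shifted between GO and FGO by at least 1 for 4 of the 9 as deposited, where 29.0% of genes did so upward and 0.148% downward, with 0 of the 9 downward. They were Twnk (1.73), Tfam (1.67), Polg2 (1.45) and Tfb2m (1.05). After rescaling the shifts of Twnk, Tfam and Polg2 were 0.87, 0.82 and 0.67, and that of Tfb2m was 0.29. Then 0 of 9 reached 1 either way, where 1.94% of all genes did upward and 0.485% downward. Under equal totals it was also 0 of 9, against 2.86% and 0.435%. From NGO to GO 0 of the 9 shifted by 1, against 0.999% of genes upward and 1.06% downward as deposited. The shares were 0.603% and 1.1% after rescaling and 0.663% and 1.56% under equal totals, again with 0 of 9. Lonp1 had the largest shift, 0.67 as deposited and 0.55 after rescaling.

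How alike the courses were was described by the root mean square distance between centred, rescaled log2 profiles over the 6 columns. The closest pair of the 9 was Tfb2m and Mgme1, at 0.16. Next came Polg with Polg2, the subunits of the polymerase, at 0.22, then Polg2 with Twnk and Tfam with Twnk, both at 0.24. The most distant pair was Tfam and Tfb2m, at 0.86, although both proteins act at the same promoters. By distance Polg was nearer to Ssbp1 and Polrmt, both at 0.32, than to Tfam, at 0.39. Distance depends on the size of the steps, which the added 1 shrinks in low genes such as Polg. Pearson correlation of the same profiles sets that size aside. It was 0.90 for Polg with Tfam and 0.92 with Twnk, against 0.80 with Polrmt and 0.26 with Ssbp1. Tfam with Polg2 had 0.96, Tfam with Twnk 0.92, Polg2 with Twnk 0.88 and Polg with Polg2 0.79. No grouping was tested. The 6 genes that hold the ETS core shown above ranged from close pairs to Tfam and Ssbp1, at a distance of 0.59. Across all compared genes with a promoter window, 7.44% of those with the core were 2-fold lower from GO to FGO in WT after rescaling, and 8.18% of those without it. These shares are close, and the core was not tested further.

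Among all compared genes, those nearest to Tfam in course were Zfp111, Polr3e and Trim30a, at distances of 0.083, 0.083 and 0.085, where the median gene was at 0.67. Polr3e encodes a subunit of RNA polymerase III and was at 1.54, 5.64 and 1.04 FPKM in WT and at 1.69, 6.17 and 5.02 FPKM in KO. Nearest to Polg were Dhx30 (0.022), Slc25a3 (0.036) and Sec22c (0.052), where the median gene was at 0.39. Dhx30 encodes an RNA helicase of mitochondrial ribosome assembly, and Slc25a3 the mitochondrial phosphate carrier. Nearest to Polrmt were Cog7 (0.065), Sil1 (0.067) and Tle6 (0.073), where the median gene was at 0.54. Tle6, whose protein belongs to a complex under the egg surface, was at 1469, 2078 and 1783 FPKM in WT and at 1461, 2894 and 4089 FPKM in KO. With 6 columns such nearness is a description of these values only.

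Other genes of the pathway were taken as lists and are given after rescaling unless stated. Of 16 further genes of replication, packaging and repair, 14 were compared. Their medians were 0.17, 0.23 and 0.30 over the stages. At GO 2 of the 14 were at least 2-fold higher in KO, Atad3a and Slc25a36, and 1 lower, Rnaseh1, against 1.05% and 1.28% of all genes. The counts at GO were the same as deposited. At FGO there was 1 gene at least 2-fold higher, Slc25a36, a pyrimidine nucleotide carrier, and 1 lower, Rnaseh1 itself, against 1.68% and 0.94% of all genes. As deposited 7 of the 14 were higher and 1 lower, against 25.8% and 0.158%. Atad3a, an inner membrane protein tied to nucleoids, was at 3.36, 4.77 and 3.85 FPKM in WT and at 4.87, 11.3 and 14.3 FPKM in KO. Its KO values were the higher at each stage. Mutyh, a repair glycosylase, differed by 0.70 at FGO.

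The 13 compared genes of nucleotide supply had medians of -0.11, -0.24 and -0.08 at NGO, GO and FGO, and 0 of 13 were called at any stage. As deposited 3 of 13 were higher in KO at FGO, again against 25.8% of all genes. Rrm2b, the ribonucleotide reductase subunit of resting cells, had 57.6 FPKM in the WT column at FGO and 65.7 in the KO column, a rescaled difference of -0.58. Rrm1, its large partner subunit, differed by 0.54, and by 1.31 as deposited. The subunits thus stood on opposite sides of the median gene.

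Of the 8 transcription partners and terminators all were compared, with a median of 0.05 at FGO and 0 called after rescaling. As deposited 1 of 8 was called higher, below the 25.8% of all genes. It was Mterf3, a repressor of mitochondrial transcription, with 10.96 FPKM for WT at FGO and 31.0 for KO. Mterf3 also fell from GO to FGO in WT, from 25.3 to 10.96 FPKM, as Tfam and Twnk did. Tfb1m, the paralogue of Tfb2m that methylates ribosomal RNA, was at 13.7, 45.4 and 38.7 FPKM in WT and at 12.2, 37.2 and 65.2 FPKM in KO. It was the higher of the paralogues in each of the 6 columns.

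Of the 24 genes of mitochondrial RNA processing, modification and decay 22 were compared, with medians of 0.13, 0.13 and 0.23 over the stages. At FGO 1 was called higher, Fastk, a regulator of mitochondrial RNA, with 3.16 FPKM for WT against 15.1 for KO, and 0 lower, where 1.68% and 0.94% of all genes were. As deposited 9 of 22 were higher, against 25.8%. Within WT 1 of 22 was called higher and 3 lower from GO to FGO, near the 5.78% and 8.33% of all genes. Nsun4, a methyltransferase of the mitochondrial ribosome, rose from 19.4 to 49.7 FPKM. Hsd17b10, a subunit of mitochondrial RNase P, fell from 54.8 to 10.9 FPKM. In KO these were at 20.0 and 98.2 FPKM and at 57.8 and 24.1 FPKM, so both moved the same way as in WT.

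The 9 proteases had medians of 0.22, 0.26 and 0.25, with 0 called. As deposited 4 of 9 were called higher at FGO, against 25.8% of all genes. Pmpcb, a subunit of the protease that removes import signals, had 9.86 FPKM at FGO for WT against 34.6 for KO. Clpx, the unfoldase of the ClpXP protease, was at 8.27 and 22.3 FPKM. Lonp1, at 9.33 and 28.3 FPKM, lay between these in KO.

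Of the 12 nuclear regulators 8 were compared, with medians of 0.03, -0.13 and 0.13 and 0 called after rescaling. As deposited 1 of 8 was higher at FGO, below the 25.8% of all genes. It was Nfe2l2, the activator of antioxidant genes, at 7.43 FPKM in WT and 25.9 in KO. Gabpa, an ETS factor that binds the core shown above, was at 0.989, 2.08 and 0.456 FPKM in WT and at 0.835, 2.42 and 1.68 FPKM in KO. Its WT step from GO to FGO was -1.08 as deposited and -0.95 after rescaling, and its KO step -0.35 and -0.77. Yy1, a factor of another family, had a lower WT step, -1.51 and -1.37, and a KO step of -0.16 and -0.63. After rescaling the WT steps of Ppargc1b and Sp1 were -0.62 and -0.44. Nrf1 was at 22.8 and 23.6 FPKM in WT GO and FGO, a course unlike that of Gabpa. Messenger levels say nothing of the activity of these factors.

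**Figure D4:**
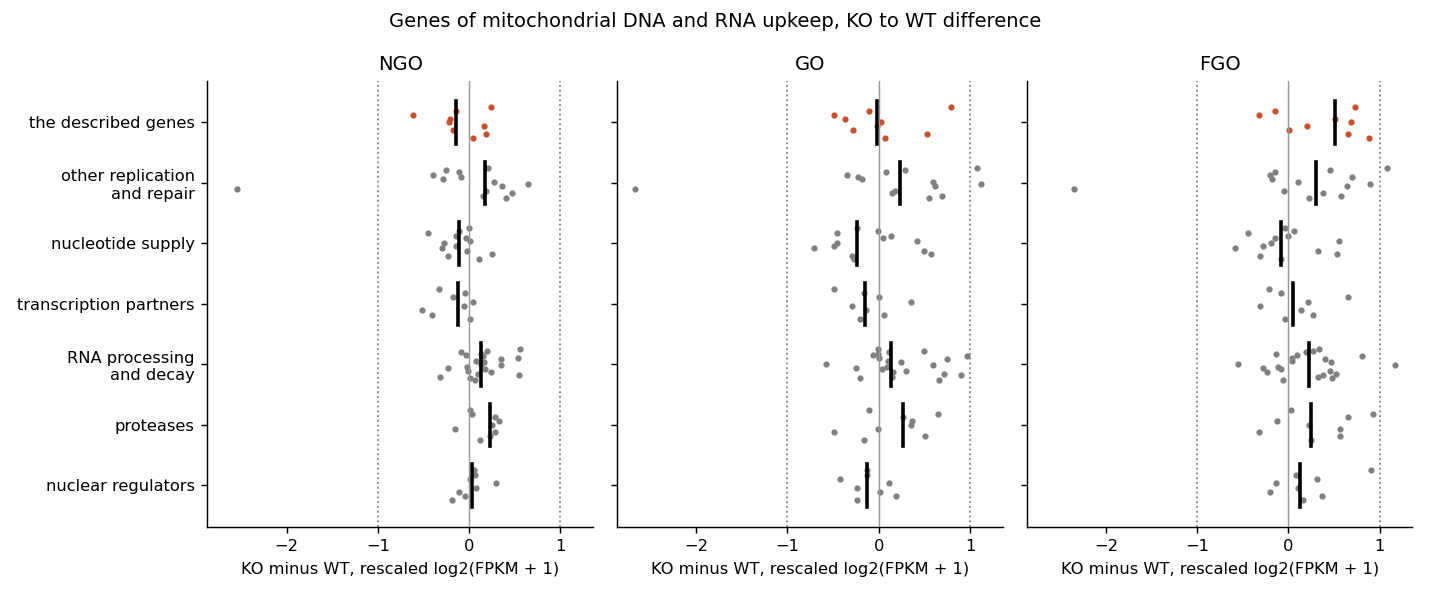
KO minus WT difference of rescaled log2(FPKM + 1) (horizontal axis) at each stage for the 9 compared genes (red) and for the compared members of 6 further lists (grey), with 1 point per gene, spread vertically for view, and a black bar at each list's median. Dotted lines mark 2-fold. The point near -2.35 at FGO is Rnaseh1, and the median of the 9 genes at FGO is 0.51.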

How the data were processed

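The build was mm10 and the tools were Cufflinks 2.2.1, HISAT2 2.2.1 and Trim Galore 0.6.7, per the submitters' processing notes. The deposited values are FPKM, which the authors adjusted to the ERCC spike-in, as the file is named. The sources used here give neither the formula nor the gene annotation. Libraries were Smart-seq2 from polyadenylated RNA, per the labels' protocols. From 25912 lines, 2 with spreadsheet error marks were dropped, and of 333 repeated symbols only that of highest mean was used. Column totals ran from 132093 to 729690 FPKM. The smallest value above 0 is 8.54e-299, an estimate and not a multiple of 1 read, so no depth could be recovered and no count test was run.

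Differences of log2(FPKM + 1) were computed over the 10110 genes that average 1 FPKM or more, and called at 1. The planned design named limma if replicate columns existed. With 1 column per group it was not run. The WT columns at NGO, GO and FGO were divided by 0.514, 1.29 and 1.31 in the rescaling, the KO columns by 0.453, 1.22 and 2.26. The genes and lists were chosen with earlier results of these data known. All 10 genes are named, with up to 4 per list by the size of the rescaled difference in the comparison described, and 3 nearest courses for Tfam, Polg and Polrmt. Tfb1m, Nrf1 and the overlapping Mrpl43, Snx5, Fanci and Milr1 are outside that rule and were picked after their values were seen. Loci and transcripts are from GENCODE M21, which gave a length for 98.3% of compared genes, near copies from blastn 2.17.0 (at least 95% identity over 300 bases), and promoter windows from RefSeq. Values were recomputed without the filter, at a minimum mean of 5 FPKM, with 0.1 in place of 1 as pseudocount, and on both other scales. The rescaling and the 2-fold call were tried on simulated data with changes placed in the KO FGO column only. Steps between stages were not tested that way. Python 3.11.15 and numpy 2.4.6 were used.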

Additional observations from a re-analysis of the deposited data

Results flagged for a closer look

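For 4 genes the KO to WT difference had opposite signs at GO and FGO as deposited and shifted by at least 1 between them. The shifts were 1.73 for Twnk, 1.67 for Tfam, 1.45 for Polg2 and 1.05 for Tfb2m. The difference between stages was not tested, since each group has a single column, and the GO differences of Tfam (-0.01) and Polg2 (-0.04) are too near 0 for their sign to be read. The median shift of all compared genes was 0.80.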

How the results depend on the processing

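No paired analysis was possible because the table holds 1 column per genotype and stage, and for the same reason no sample could be left out. The scale decides most counts. After the median-ratio rescaling the 5 genes called at FGO between genotypes became 0, and under equal totals 1 (Tfam). The 7 genes called from NGO to GO became 0 under both scalings and 8 with a pseudocount of 0.1, in WT and in KO. The 2 called from GO to FGO in KO became 0 under both and 1 with a mean of at least 5 FPKM, which leaves 6 of the genes. The 4 shifts between GO and FGO became 0 under both scalings, 7 with a pseudocount of 0.1, and 2 with a mean of at least 5 FPKM. The WT count from GO to FGO stayed at 2 or 3 under each alternative, and at NGO and GO 0 genes differed 2-fold between genotypes under any. Called NGO to GO steps that turned sign after rescaling were Twnk in KO (-0.13) and, in WT, Ssbp1 (-0.10), Mgme1 (-0.015) and Lonp1 (-0.12). Under equal totals they were Twnk in KO (-0.13), Ssbp1 (-0.069) and Lonp1 (-0.090).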
